A study of Mus musculus with 2 samples.

Results

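In the colons of mice recovering from chemical colitis, 1144 of 19998 cell barcodes formed a transcript-rich set that the authors' deposited cell annotation does not list and that carries RNA of 5 genes of inflammatory monocytes. A barcode belonged to the set when it was absent from that annotation, had at least 2200 detected genes, had under 5% of its UMIs (unique molecular identifiers, the counted molecules) on mitochondrial genes and under 5% on each immunoglobulin locus, summed at least 10 UMIs of Fn1, Chil3, Ly6c2, F10 and Plac8, and had more of these than of C1qa, C1qb and C1qc. The members were thus chosen by their number of genes, their shares of mitochondrial and immunoglobulin UMIs and the UMIs of these 8 genes, whose levels are given as a description. Plac8 dominated the choice, and the barcodes are therefore called the Plac8-led set below.

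The study profiled live CD45+ cells sorted from the colonic lamina propria by 5' single-cell RNA sequencing, with 1 library from a line labelled E4BP4 transgenic and 1 library from wild-type mice. Both groups were C57BL/6 mice aged 8 weeks that drank 2.0% dextran sulfate sodium for 7 days and water for 7 days and were killed on day 14. The labels describe the transgene as macrophage-specific overexpression of E4BP4, the protein encoded by Nfil3. The promoter that drives it and the number of animals per library are not given in the sources used here. With 1 library per genotype there is no replicate check and no test: every interval below is a 95% interval that covers counting error only. Within the set, Nfil3 was not higher in the library labelled transgenic than in the wild-type library, so that library is called by its label throughout.

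Ly6C-high monocytes leave the blood through the chemokine receptor CCR2, enter the inflamed gut wall and there either act as inflammatory cells or mature into macrophages that gain MHC class II and C1q. Dextran sulfate sodium damages the colonic epithelium and draws in such monocytes together with neutrophils. E4BP4 is a basic leucine zipper protein that binds D-box elements, mostly as a repressor, and is known for its roles in the circadian clock and in innate lymphoid cells, dendritic cells and macrophages.

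Sequencing depth was 58884332 UMIs over 10143 barcodes for the library labelled transgenic and 69346746 UMIs over 9855 barcodes for the wild-type library. The Plac8-led set held 8.78% and 14.1% of those UMIs. Its barcodes had a median of 11101 UMIs (range 5032 to 49525) in the library labelled transgenic and 10020 UMIs (range 5193 to 96808) in the wild-type library, and their median share of mitochondrial UMIs was 0.786% and 0.645%. The 2 libraries shared 142 barcode sequences, of which 3 in the library labelled transgenic and 10 in the wild-type library belonged to the set.

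The set was smaller in the library labelled transgenic. It held 372 barcodes there, 3.67% of all (exact binomial interval 3.31% to 4.05%), and 772 barcodes in the wild-type library, 7.83% of all (7.31% to 8.38%). The ratio of the 2 shares was 0.468 (0.413 to 0.531). Over all barcodes, the median was 2883 UMIs and 1203 genes in the library labelled transgenic, and 3677 UMIs and 1327 genes in the wild-type library. The rule has a fixed gene limit, and the part of this difference in depth in the ratio was not tested. Among the barcodes that the annotation leaves out and that passed the limits on genes, mitochondrial and immunoglobulin UMIs, the set made up 28.8% of 1290 in the library labelled transgenic and 44.9% of 1718 in the wild-type library. Deposited cluster 3, an annotated cluster with monocyte genes below the gene limit, held 437 and 814 cells. Of these, 48.5% and 68.9% met the condition on the 8 genes. The set was 46.0% and 48.7% of the set and cluster 3 together, a ratio of 0.945 with an interval that includes 1 (0.832 to 1.07). That ratio counts every barcode of the set. With only its 63 and 504 barcodes rich in other monocyte genes (defined below) counted beside cluster 3, the shares were 12.6% and 38.2%. Their ratio was 0.33 (0.249 to 0.429).

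Checked against 15 monocyte genes that the rule did not use, among them Lyz2, Ccr2, Cd14, Csf1r and Hp, most of the set in the library labelled transgenic carried little RNA of monocytes. The 15 genes held a median of 0.207% of a barcode's UMIs there (quartiles 0.0594% and 0.557%, highest 5.03%) and 1.76% in the wild-type library (quartiles 0.427% and 2.87%, highest 5.37%). Cells of cluster 3 held 1.72% and 2.39%. Plac8, which encodes a small cysteine-rich protein of monocytes and several lymphoid cells, was the most abundant of the 5 rule genes in 301 of 372 barcodes (80.9%) and in 611 of 772 (79.1%). It supplied at least 90% of the rule UMIs in 220 barcodes (59.1%) of the library labelled transgenic and in 241 (31.2%) of the wild-type library. Plac8 was also present in deposited cluster 0, which carries B cell genes, at 464 and 409 CPM (counts per 1000000 UMIs), with a UMI in 45.5% and 47.6% of its cells. Fn1 (fibronectin) was the most abundant rule gene in 58 and 91 barcodes, Ly6c2 (the Ly6C surface antigen) in 13 and 29, Chil3 (a chitinase-like protein) in 0 and 26, and F10 (coagulation factor X) in 0 and 15.

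**Figure D1:**
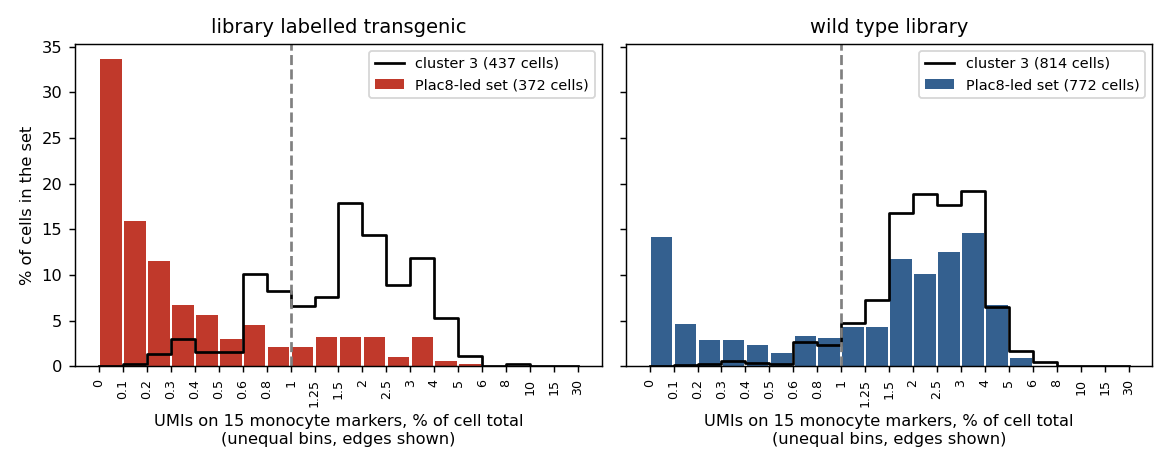
Share of UMIs on the 15 monocyte genes outside the rule (x axis, percent of a barcode's UMIs) against the share of barcodes (y axis, percent of the group), for the library labelled transgenic and the wild-type library, in the Plac8-led set and in deposited cluster 3. The median of the set was 0.207% in the library labelled transgenic and 1.76% in the wild-type library, and the dashed line marks the 1% used to define the monocyte-marker-rich barcodes.

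Values just outside and just inside the limits show how sharp the edges were. Members up to 100 genes above the gene limit numbered 34 and 100, with median rule sums of 21 and 31.5 UMIs. Cells up to 100 genes below it that met the condition on the 8 genes numbered 44 and 98, with median sums of 24 and 28.5 UMIs. Barcodes with a rule sum of 10 to 12 UMIs, just inside, numbered 81 and 73, and 6.17% and 34.2% of them had at least 1% of their UMIs on the 15 monocyte genes. Those with a sum of 5 to 9 UMIs, just outside, numbered 158 and 115, with 1.27% and 12.2% at that level.

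Leiden clustering split the set into 14 sub-clusters that carried the genes of several cell types. These genes defined the sub-clusters and are descriptions. Sub-cluster 4 was led by Ly6c2, Lyz2, F13a1 and Chil3, with 5 monocyte genes among its top 10, and was called monocyte-like. It held 6 barcodes (1.61% of the set) in the library labelled transgenic and 114 (14.8%) in the wild-type library. Sub-cluster 0, led by Apoe, C1qb, C1qc and Ccr2, held 26 (6.99%) and 168 (21.8%), and sub-cluster 1, led by Spp1, Cxcl3, Arg1, Saa3 and Nos2, held 11 (2.96%) and 145 (18.8%). Sub-cluster 10, led by the neutrophil genes S100a9, S100a8 and Retnlg, held 2 and 33, and sub-cluster 8, led by the B cell genes Cd79a, Ebf1 and Cd79b beside monocyte genes, held 10 and 41.

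Sub-clusters 2, 3, 5, 6, 7, 9, 11 and 12 took larger shares of the set in the library labelled transgenic. Sub-cluster 5, led by Cst3, Xcr1 and Clec9a, genes of the dendritic cells that cross-present antigen, held 67 barcodes (18%) against 30 (3.89%) in the wild-type library, a ratio of shares of 4.63 (2.97 to 7.39). Sub-cluster 12, led by Retnla, Fcrls, Lpl and Lyz1, held 16 and 5, a ratio of 6.64 (2.32 to 23.2). Sub-cluster 3, led by the epithelial genes Car1, Krt8 and Krt19, held 61 (16.4%) and 60 (7.77%). Its 9 epithelial genes summed to 26884 and 37049 CPM at median depths of 26109 and 33034 UMIs, although the CD45+ sort would remove epithelial cells. Sub-cluster 2, led by Cd209a, Klrd1 and Clec10a, held 55 and 78. Sub-cluster 6, with the smooth muscle genes Tagln and Acta2, held 38 and 24, sub-cluster 7, with Siglech and Bst2 of plasmacytoid dendritic cells, 32 and 24, and sub-cluster 9, with Gzma, Mcpt1 and Ms4a1, 23 and 25. Sub-cluster 11, with the dividing-cell genes Ube2c, Top2a and Mki67, held 20 and 11. Sub-cluster 13, with Col3a1 and Col1a1 of fibroblasts, held 5 and 14, the smaller share (1.34% and 1.81%) in the library labelled transgenic. The sub-clusters rest on the most variable genes among the pooled barcodes, without use of the library labels. Several of their leading genes, such as Spp1, Saa3 and Xcr1, also differ between the libraries. The shares of sub-clusters are a description of the make-up and not a count of cell types.

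**Figure D2:**
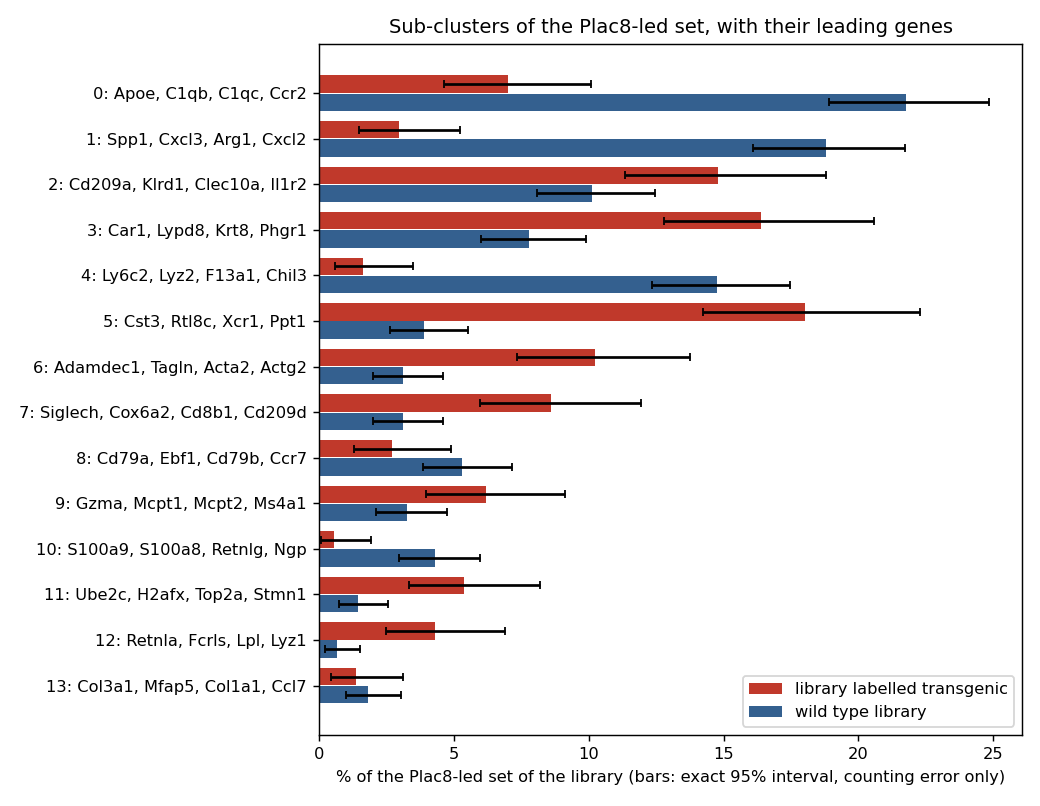
Share of the Plac8-led set in each of the 14 sub-clusters (percent, with 95% exact binomial intervals), the library labelled transgenic above the wild-type library, with the leading genes of each sub-cluster. Sub-clusters 0, 1 and 4 held 6.99%, 2.96% and 1.61% of the set in the library labelled transgenic and 21.8%, 18.8% and 14.8% in the wild-type library.

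Genes were then compared between the libraries over the summed UMIs of the whole set. A gene was called when its CPM of summed UMIs differed at least 1.5-fold between the libraries and it had at least 50 UMIs over both. Of 11150 genes with that many UMIs, 1764 were higher in the library labelled transgenic (15.8%) and 968 were lower (8.68%), and 1626 (14.6%) and 914 (8.2%) had a counting interval of the ratio without 1. The median over all 11150 genes was 0.12 on the log2 scale. Scaled to that median instead, 1258 genes were higher and 1263 lower, so 49.9% of the calls were higher in place of 64.6%.

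Of the 12 named genes higher in the library labelled transgenic, 11 had their largest share of UMIs there in sub-cluster 3, 5, 6 or 12 at 44.3% to 99.1%, and Bex3 was spread more widely, with 29.4% in sub-cluster 5. Sycn, which encodes the secretory granule protein syncollin, was at 354 CPM in the library labelled transgenic and 26.8 CPM in the wild-type library, a ratio of 13.2 (11.6 to 15.1), and 99.1% and 97.3% of its UMIs lay in sub-cluster 3. The dendritic cell receptors Clec9a, at 73.9 and 16.6 CPM, and Xcr1, at 45.3 and 10.7 CPM, lay mainly in sub-cluster 5. Rtl8c, Cadm1, Gpr141b, Sept3 and Cd36 also had their largest share in sub-cluster 5 in the library labelled transgenic, with ratios of 5.06, 5.83, 5.63, 5.32 and 5.42. The smooth muscle gene Tpm2, with a ratio of 4.22, lay in sub-cluster 6 to 90.7% there, with 77.7% of its UMIs in 5 barcodes. Nr1d1, which encodes the clock repressor REV-ERB alpha, was at 37.7 and 9.08 CPM and lay in sub-cluster 3 to 84.1% in the library labelled transgenic. Lpl (lipoprotein lipase) and the brain-expressed X-linked gene Bex3 completed the 12, with ratios of 5.43 and 3.69.

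Of the 12 named genes lower in the library labelled transgenic, all but Apoc2 had their largest share of wild-type UMIs in sub-cluster 1, between 30.7% for Lrg1 and 93.7% for Spp1, and Apoc2 had 38.1% in sub-cluster 0. Saa3, an acute-phase protein, was at 7.93 CPM in the library labelled transgenic and 902 CPM in the wild-type library. Spp1 (osteopontin) was at 9.87 and 545 CPM and Arg1 (arginase 1) at 4.64 and 256 CPM, with 93.7% and 88.5% of their wild-type UMIs in sub-cluster 1. In the wild-type library 5 barcodes held 60.0% of the UMIs of Spp1, 35.5% of those of Arg1 and 33.4% of those of Saa3. For Lrg1 that share was 10.1%. The neutrophil-attracting chemokine Cxcl3 was at 34.2 and 544 CPM, Hp (haptoglobin) at 53.4 and 935 CPM, and C5ar1, the receptor for complement C5a, at 13 and 144 CPM. Lrg1, Clec4e, Clec4d, Tarm1, Timp1 and Apoc2 were the other 6, with ratios between 0.0295 and 0.121. The rule gene Chil3 was at 5.61 and 211 CPM and Ccr2 at 166 and 429 CPM. Nfil3 itself was at 55.3 CPM in the library labelled transgenic and 170 CPM in the wild-type library, a ratio of 0.325 (0.285 to 0.368).

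To set monocyte-like barcodes of the 2 libraries beside each other, the set was limited to barcodes with at least 1% of their UMIs on the 15 monocyte genes, a limit chosen after the values had been seen. These monocyte-marker-rich barcodes numbered 63 in the library labelled transgenic, 16.9% of the set (13.3% to 21.1%), and 504 in the wild-type library, 65.3% of the set (61.8% to 68.6%). Of all barcodes they were 0.621% and 5.11%, a ratio of 0.121 (0.0919 to 0.158). A score from 0.8% to 1.2% was found in 12 and 51 barcodes of the set, and Lyz2 alone gave 58.8% and 46.4% of the UMIs behind the score. The median depth per barcode was 9409 and 9523.5 UMIs. The summed UMIs behind the ratios were 651127 in the library labelled transgenic and 5145870 in the wild-type library.

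These barcodes also held RNA of genes that mark other cell types. Markers of T cells summed to 419 CPM in the library labelled transgenic and 183 CPM in the wild-type library, with all 10 genes detected in both, and 23.8% and 11.3% of barcodes had at least 3 such UMIs. B cell markers summed to 450 and 269 CPM and dendritic cell markers to 511 and 190 CPM. Neutrophil markers went the other way, at 175 and 13282 CPM. Retnlg, Mmp9, Cxcr2, Camp, Ngp and G0s2, 6 of the 14 neutrophil genes, were at 0 in the library labelled transgenic. Fibroblast markers summed to 7.68 and 368 CPM, macrophage markers to 3032 and 3013 CPM, epithelial markers to 170 and 204 CPM and plasma cell markers to 590 and 634 CPM. The part of these cells in the gene differences below was not tested, except where barcodes or sub-clusters were left out.

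Of 7337 genes with at least 50 UMIs in the monocyte-marker-rich barcodes, 913 were higher in the library labelled transgenic (12.4%) and 1155 were lower (15.7%). A counting interval without 1 remained for 587 (8%) and 639 (8.71%) of the genes. The median over all genes was -0.02 on the log2 scale. The lists below are read against these shares.

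Retnla, which encodes the alternative-activation protein RELM alpha (chr16:48842551-48844461, plus strand, mm10), stood highest of the 12 named genes. It was at 6031 CPM in the library labelled transgenic and 80.3 CPM in the wild-type library, a ratio of 75.1 (67.9 to 83.4). Without barcodes that had at least 3 UMIs of another lineage's markers the ratio was 2.91 where plasma cell genes counted among these markers, with 5 and 29 barcodes left, and 118 where they did not, with 31 and 240 left. Retnla RNA was concentrated in few cells. In the library labelled transgenic 5 barcodes held 79.2% of its UMIs, and sub-cluster 12 held 99.9% and 99.0%. In cluster 3 cells that passed the rule genes and the 1% limit, Retnla was at 1275 and 109 CPM, a ratio of 11.7 (10.4 to 13.2). Lpl, at 453 and 11.5 CPM, Lyz1 (a lysozyme), at 246 and 5.64 CPM, Fcrls, a microglial and macrophage surface protein, at 194 and 5.64 CPM, and the lectins Clec4b1, at 103 and 7.97 CPM, and Mgl2, at 111 and 16.5 CPM, lay mostly in the same sub-cluster in the library labelled transgenic. Fgfr1, Rras2, Cd81 and Slamf9 did too, with ratios of 26.3, 15, 6.30 and 6.54, while Cd36, with a ratio of 10.0, had 48.5% of its UMIs there. Without sub-cluster 12, Lpl had a ratio of 7.85 and Lyz1 of 5.49. Few UMIs stand behind these 2 values, as that sub-cluster held 88.5% and 90.6% of their UMIs in the library labelled transgenic. There 5 barcodes held 65.4% of the UMIs of Lpl and 91.9% of those of Lyz1.

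Bex3 was spread more evenly than the other genes that stood higher. It had 198 CPM in the library labelled transgenic and 25.5 CPM in the wild-type library, a ratio of 7.78 (6.06 to 10.0), with a UMI in 87.3% and 19.0% of barcodes. After each barcode was thinned to 5000 UMIs the shares were 61.9% and 11.9%. The gene was also at 252 and 48.9 CPM in cluster 0, where 62.8% and 16.7% of cells had a UMI after the same thinning, and 9.21 times higher in the library labelled transgenic in cluster 3 cells that passed the rule genes and the 1% limit.

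Arg1, which turns arginine into ornithine and urea, was the gene furthest down by the ranking. It had 4 UMIs (6.14 CPM) in the library labelled transgenic and 2373 UMIs (461 CPM) in the wild-type library, 92.4% of them in sub-cluster 1. Lrg1 was at 3.07 and 252 CPM, Saa3 at 55.3 and 1564 CPM and Spp1 at 33.8 and 1025 CPM. In the wild-type library 5 barcodes held 60.7% of the UMIs of Spp1, 37.6% of those of Arg1 and 36.7% of those of Saa3. For Lrg1 that share was 10.7%. Sub-cluster 1 also held most wild-type UMIs of Cxcl3 (92.8%), Acp5 (73.2%), Pfkfb3 (63.2%) and Tnfaip6 (56.8%), with ratios of 0.247, 0.154, 0.157 and 0.0541. Tnfaip6 had 1 UMI in the library labelled transgenic, and the interval of its ratio was 0.00136 to 0.306. C5ar1, Grina and the B cell survival factor Tnfsf13 had ratios of 0.238, 0.228 and 0.124. The neutrophil collagenase Mmp8, with a ratio of 0.117, had 47.0% of its wild-type UMIs in sub-cluster 10.

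**Figure D3:**
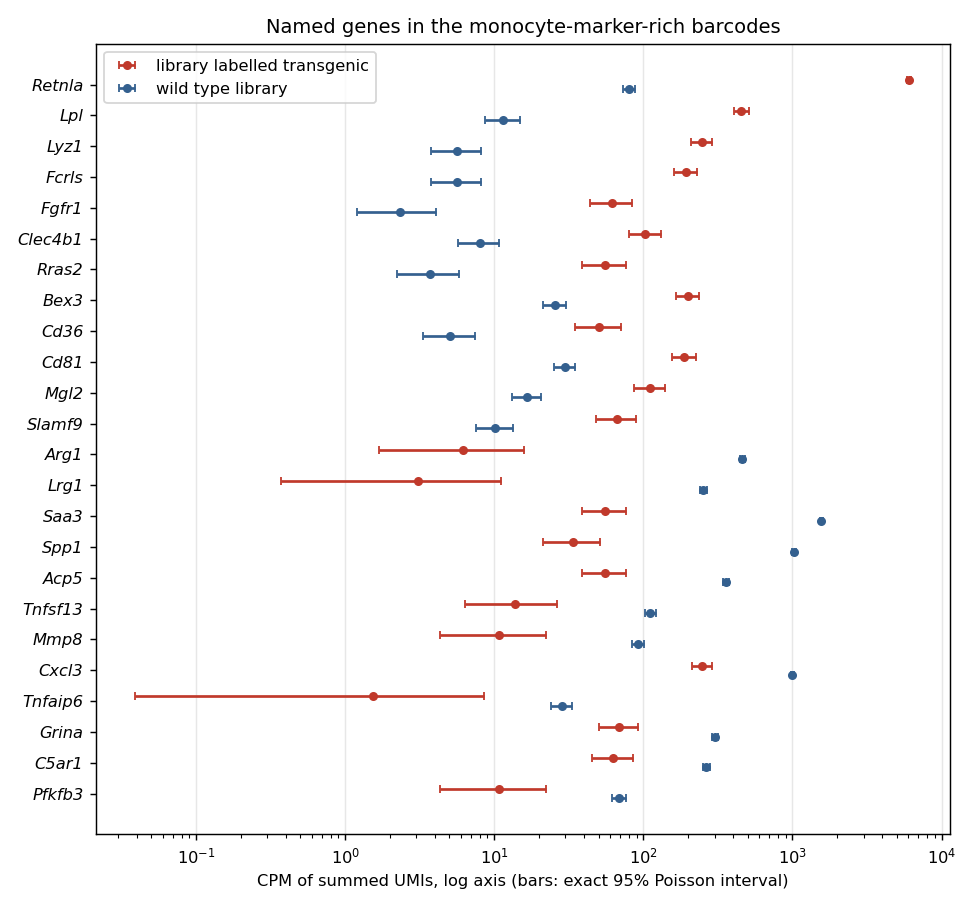
Summed CPM (log axis, with 95% Poisson intervals) of the 12 named genes each way in the monocyte-marker-rich barcodes, in the library labelled transgenic (63 barcodes) and the wild-type library (504 barcodes). The genes were ranked after the exclusions given with the processing, so genes further apart can be missing. Retnla stood at 6031 CPM in the library labelled transgenic and 80.3 CPM in the wild-type library, and Arg1 at 6.14 and 461 CPM.

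Among the monocyte genes of the rule, levels diverged in both directions. Chil3 was at 43.0 CPM in the library labelled transgenic and 392.4 CPM in the wild-type library, a ratio of 0.110 (0.0726 to 0.159), and F10 at 118 and 278 CPM. Plac8 was at 1904 and 2620 CPM and Ly6c2 at 567 and 460 CPM, both within 1.5-fold. Fn1 was at 1140 and 648 CPM, a ratio of 1.76, but sub-cluster 12 held 80.9% of the UMIs in the library labelled transgenic and the ratio without that sub-cluster was 0.473. After thinning to 5000 UMIs, Chil3 was detected in 11.1% (4.59% to 21.6%) and 51.0% (46.5% to 55.4%) of barcodes, and before thinning in 14.3% and 59.1%. In cluster 0, whose B cells should lack it, Chil3 was found in 0 of 78 and 0 of 102 cells at that depth, which allows shares of up to 4.62% and 3.55% by the exact binomial interval. Thinning left out 2158 and 2308 shallower cells of cluster 0 and 0 barcodes of the set. Ccr2, the receptor that brings monocytes into tissue, was at 631 and 749 CPM, a ratio of 0.843 (0.759 to 0.933).

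Nfil3 (chr13:52967209-52981073, minus strand, mm10), the gene of the transgene, was at 240 CPM in the library labelled transgenic and 285 CPM in the wild-type library, a ratio of 0.841 (0.708 to 0.993). It had a UMI in 77.8% and 83.7% of barcodes, and after thinning to 5000 UMIs in 65.1% and 68.5%, against 3.85% and 1.96% of cluster 0 cells. The D-box letters TTATGTAA and TTACGTAA, searched on both strands in RefSeq promoter windows of 300 bases (build GRCm38.p6), were in 347 of 32851 windows (1.06%). None of the 35 windows of the named genes held them, which says only that these letters are not in those windows.

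Genes of glycolysis and the response to low oxygen were lower as a group in the library labelled transgenic. Of 22 listed genes with at least 50 UMIs, 19 were lower and 0 higher, with a median of -1.0 on the log2 scale against -0.02 for all genes, and 18 of the 19 had an interval without 1. Largest were Egln3, an oxygen-sensing hydroxylase, with 3 and 99 UMIs, and Slc2a3, a glucose transporter, with 3 and 86 UMIs. Bnip3, a mitophagy receptor, was at 32.3 CPM in the library labelled transgenic and 105 CPM in the wild-type library, a ratio of 0.308 (0.189 to 0.476). The lactate exporter Slc16a3 was at 92.1 and 251 CPM and the phosphofructokinase Pfkl at 23.0 and 67.8 CPM, and Vegfa had a ratio of 0.420. Abundant enzymes, chosen after their values were seen, moved by similar factors: Aldoa (aldolase) was at 511 and 1085 CPM, Pkm (pyruvate kinase) at 587 and 1176 CPM, Pgk1 at 240 and 483 CPM, Tpi1 at 189 and 405 CPM and Ldha (lactate dehydrogenase) at 587 and 908 CPM. Hif1a, the transcription factor that drives this programme under low oxygen, was at 190 and 367 CPM. Pfkp and Hk1 stood at ratios of 1.30 and 1.2, and their intervals included 1.

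The glycolysis list held its direction in the sets of cells tried. It had 0 genes higher and 18 of 21 lower without sub-clusters 8 and 10, which carried B cell and neutrophil genes, where 12.2% and 17.1% of all 6875 genes were called higher and lower. Without barcodes that had at least 3 UMIs of T, B, neutrophil, epithelial or fibroblast lists, which left 31 and 240 barcodes, it had 1 higher and 15 of 19 lower, where 11.1% and 19.1% of all 4962 genes were called. In sub-cluster 0 alone, with 19 and 159 barcodes, 0 were higher and 8 of 17 lower, with a median of -0.50, where 11.4% and 16.4% of all 3937 genes were called higher and lower. In cluster 3 cells that passed the rule genes and the 1% limit, 0 were higher and 16 of 21 lower, where 11.4% and 7.72% of all 6191 genes were called higher and lower. By contrast, 0 of 17 genes of the respiratory chain were called either way in the monocyte-marker-rich barcodes, with a median of -0.05.

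The letters ACGTG, the core of the element bound by HIF-1, were searched on both strands of the promoter windows because the listed genes differed together. They were in 19.6% of all windows and in at least one window of 21.8% of genes, and of 15 of the 21 listed genes in the table (71.4%). The windows of Pkm (chr9:59656977-59657276, plus strand) and Aldoa (chr7:126799205-126799504, minus strand), from RefSeq on GRCm38.p6, are shown with the matches in capitals, CACGT being the same letters read on the other strand.
Pkm: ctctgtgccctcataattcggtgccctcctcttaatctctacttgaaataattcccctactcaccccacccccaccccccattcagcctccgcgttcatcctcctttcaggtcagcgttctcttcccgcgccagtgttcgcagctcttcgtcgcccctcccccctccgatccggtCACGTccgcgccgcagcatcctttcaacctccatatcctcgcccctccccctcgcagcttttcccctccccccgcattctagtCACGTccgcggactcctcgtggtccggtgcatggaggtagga
Aldoa: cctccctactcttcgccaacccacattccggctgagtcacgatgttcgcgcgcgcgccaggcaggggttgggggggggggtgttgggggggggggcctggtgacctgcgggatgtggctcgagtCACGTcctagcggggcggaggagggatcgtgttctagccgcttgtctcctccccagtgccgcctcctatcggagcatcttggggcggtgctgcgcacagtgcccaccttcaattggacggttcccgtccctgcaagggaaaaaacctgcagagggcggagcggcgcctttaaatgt
The match is a description of these letters and says nothing of what bound there.

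Genes of the MHC class II pathway were higher in the library labelled transgenic. Of 15 listed genes, 10 were higher and 0 lower, all 10 with an interval without 1, and the median was 0.86 on the log2 scale. H2-DMb2, a chain of the peptide editor H2-DM, was at 127 CPM in the library labelled transgenic and 35.6 CPM in the wild-type library, and H2-Oa and H2-Ob, chains of its inhibitor H2-O, had ratios of 3.46 and 3.07. The antigen-presenting chains H2-Eb1, at 3827 and 1561 CPM, H2-Ab1, at 3578 and 1581 CPM, and H2-Aa, at 5315 and 2794 CPM, had ratios of 2.45, 2.26 and 1.90. Ciita, the master regulator of the pathway, was at 82.9 and 40.4 CPM, and the invariant chain Cd74 at 17513 and 9846 CPM. H2-Eb1 was detected in 88.9% and 66.1% of barcodes.

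B cells and dendritic cells carry the same pathway, and their marker sums in these barcodes were 450 and 511 CPM in the library labelled transgenic and 269 and 190 CPM in the wild-type library. Without barcodes with other-lineage UMIs, 9 of 13 MHC class II genes were higher and 1 lower, with a median of 0.69, a criterion that left dendritic cell markers in. In sub-cluster 0 alone 1 of 11 was higher and 1 lower, with a median of 0.23, near the 11.4% and 16.4% of all genes called there. In the cluster 3 cells of the same limit, 7 of 12 were higher and 0 lower.

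The letters GATTGG, the Y box of MHC class II promoters, were in 16.1% of all windows and of 18.2% of genes, and of 7 of the 10 listed genes in the table (70%). H2-Aa (chr17:34287774-34288073, minus strand) and H2-Eb1 (chr17:34305617-34305916, plus strand) are shown with the matches on either strand in capitals, CCAATC being the other strand.
H2-Aa: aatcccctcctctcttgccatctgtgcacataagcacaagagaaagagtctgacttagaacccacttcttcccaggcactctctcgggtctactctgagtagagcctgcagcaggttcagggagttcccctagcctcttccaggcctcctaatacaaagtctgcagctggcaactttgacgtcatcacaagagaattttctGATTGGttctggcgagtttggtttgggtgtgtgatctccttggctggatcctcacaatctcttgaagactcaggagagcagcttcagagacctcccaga
H2-Eb1: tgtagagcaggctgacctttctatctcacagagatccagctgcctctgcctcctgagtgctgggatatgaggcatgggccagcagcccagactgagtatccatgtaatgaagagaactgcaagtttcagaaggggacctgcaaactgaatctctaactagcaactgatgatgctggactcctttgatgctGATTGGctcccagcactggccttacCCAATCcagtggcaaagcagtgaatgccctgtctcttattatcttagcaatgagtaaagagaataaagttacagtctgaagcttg
These matches too describe letters only.

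**Figure D4:**
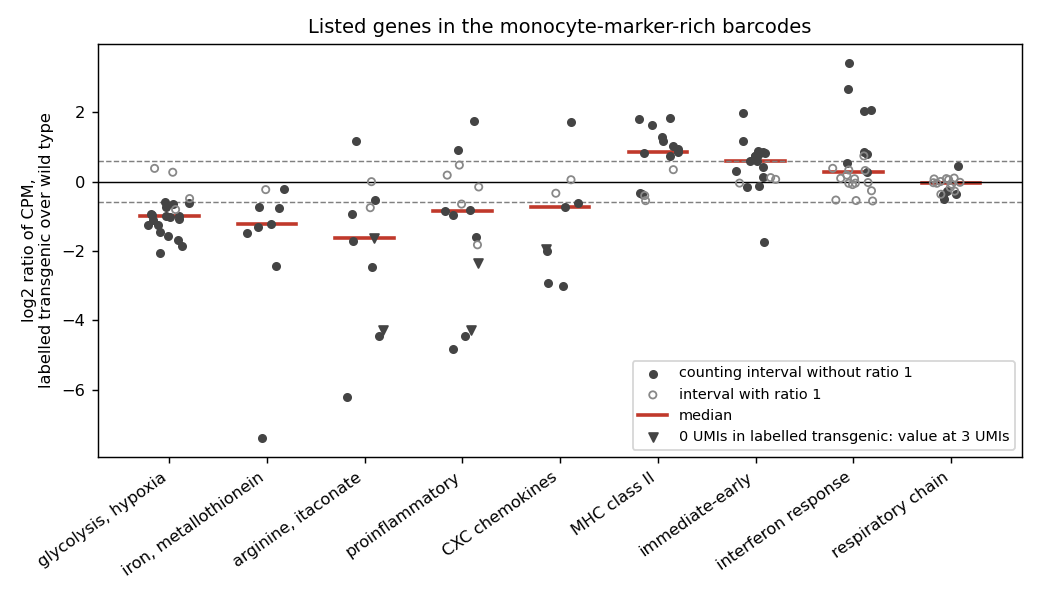
Ratio of the library labelled transgenic over the wild-type library (log2 scale) for each gene with at least 50 UMIs in 9 function lists, monocyte-marker-rich barcodes, with the list median as a bar and filled points where the counting interval lacks 1. Triangles mark genes with 0 UMIs in the library labelled transgenic, drawn at the limit of 3 UMIs, and the glycolysis list centres on -1.0 and the MHC class II list on 0.86.

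Inflammatory mediators were mostly lower in the library labelled transgenic. Of 15 listed cytokine and inflammatory genes, 10 were lower and 2 higher, with a median of -0.85. Nos2 (inducible nitric oxide synthase) and Ptges (prostaglandin E synthase) had 0 UMIs there against 459 and 122 in the wild-type library, and Acod1, which makes itaconate, had 3 against 524. Il1b was at 3772 and 6632 CPM, a ratio of 0.569 (0.546 to 0.593). Its partner Il1a was at 39.9 and 122 CPM. Il6 went the other way, with 24 UMIs against 56, a ratio of 3.39. The anti-inflammatory cytokine Il10 had 5 UMIs against 65, a ratio of 0.608 with an interval that includes 1 (0.191 to 1.49). Of 11 genes of arginine and itaconate metabolism, 8 were lower and 1 higher, and Odc1, which turns ornithine into putrescine, was the one higher, at 109 and 48.4 CPM. In sub-cluster 0 alone, where 16.4% of all genes were called lower and 11.4% higher, 2 of 6 inflammatory genes were lower and 1 higher, with a median of -0.06.

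Chemokines were counted by family, and the difference between families was not tested. Of 9 CXC genes 6 were lower and 1, Cxcl9, was higher, at 46.1 CPM in the library labelled transgenic and 14 CPM in the wild-type library. Cxcl3 was at 247 and 999 CPM and Cxcl2, another attractant of neutrophils, at 2397 and 4025 CPM. In sub-cluster 0 alone Cxcl3 stood on the higher side, with a ratio of 3.73. Of 8 CC genes 3 were higher, Ccl9 at 865 and 519 CPM, Ccl6 at 3360 and 2049 CPM and Ccl4 at 1353 and 842 CPM, and 2 were lower, Ccl24 and Ccl7 at ratios of 0.269 and 0.376.

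Genes of antimicrobial defence and iron handling were lower beside a much smaller neutrophil signal. Of 16 antimicrobial and S100 genes 11 were lower and 2 higher, with S100a8 at 1 UMI against 22814 and S100a9 at 3 against 31520. These are neutrophil genes as well, and without sub-clusters 8 and 10 the list had 9 lower and 2 higher of 15. Of 9 iron and metal-binding genes 7 were lower and 0 higher, with a median of -1.23. The haemoglobin scavenger Hp was at 323 and 1743 CPM, the iron transporter Slc11a1 at 56.8 and 140 CPM, the haem-degrading enzyme Hmox1 at 59.9 and 141 CPM and the ferritin chain Fth1 at 12435 and 20536 CPM. Without barcodes with other-lineage UMIs 5 of 9 were lower, with a median of -0.82.

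Matrix and phagocytic genes leaned lower too. Of 14 genes of matrix and repair 8 were lower and 2 higher. The fibroblast gene Sparc, which had 0 UMIs against 415, stood beside Tgfbi, a matrix adhesion protein, at 840 and 2028 CPM, Thbs1 (thrombospondin 1) at 743 and 1512 CPM, and Vcan (versican) at 61.4 and 164 CPM. Of 14 scavenger and phagocytic receptors 7 were lower and 2, Cd36 and Axl, higher, with the Fc receptors Fcgr4, Fcgr2b and Fcgr3 at ratios of 0.383, 0.510 and 0.552. Of 18 pattern recognition genes 5 were lower and 0 higher, among them Tlr4, Trem1 and the endotoxin co-receptor Cd14, at 1364 and 2710 CPM. Of 20 cytokine receptors 5 were lower and 0 higher.

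Immediate-early and several myeloid regulator genes were higher in the library labelled transgenic. Of 21 immediate-early and heat shock genes 11 were higher and 1 lower, with a median of 0.60. Egr1 was at 181 and 46.3 CPM, a ratio of 3.92 (3.12 to 4.91), Hspa1b, Ier2, Klf2 and Jund had ratios of 2.24, 1.82, 1.81 and 1.77, and Ier3 was lower at 326 and 1085 CPM. In sub-cluster 0 alone 5 of 20 were higher and 1 lower, where 11.4% and 16.4% of all genes were called. Of 25 myeloid transcription factors 7 were higher and 7 lower: Batf3 and Irf4, regulators of dendritic cells, had ratios of 3.08 and 2.80, and Egr2 and Cebpa 2.76 and 2.54.

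Interferon-response genes changed their balance with the cells included. Of 23 genes 7 were higher and 0 lower, with a median of 0.27, led by Ifit1 at 75.3 CPM in the library labelled transgenic and 7.00 CPM in the wild-type library. In the library labelled transgenic 5 barcodes held all UMIs of Ifit1 and 95.7% of those of Rsad2. Without sub-clusters 8 and 10 the list had 2 higher and 2 lower of 20, near the shares of all genes, and without barcodes with other-lineage UMIs 1 higher and 6 lower of 16, with a median of -0.35. In the cluster 3 cells of the same limit 18 of 22 were higher and 0 lower, with a median of 0.86. The difference between the 2 sets of cells was not tested.

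Alternative-activation genes and lectins split evenly, with 7 higher and 7 lower of 17. Retnla, Clec4b1, Cd36 and Mgl2 stood on the higher side and Retnlg, Arg1 and Chil3 on the lower. Of 14 genes of lipid handling 3 were higher, Fabp4 at 53 UMIs against 9, Lpl and Cd36, and 3 were lower, the apolipoprotein Apoc2, the cholesterol exporter Abca1 and Lpcat2, at ratios of 0.313, 0.317 and 0.444. Of 20 genes of monocyte recruitment 7 were lower, among them Fpr1, C5ar1 and Ccr1, and 1, Spn, was higher. Of 13 coagulation and fibrinolysis genes 6 were lower and 2 higher, and of 7 clock and D-box genes Rora and Arntl were higher and 0 lower, on 17 and 11 UMIs in the library labelled transgenic.

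Set beside deposited cluster 3, the whole Plac8-led set held more RNA of other cell types in both libraries. Of 9246 genes with at least 50 UMIs in both comparisons, 2525 were at least 1.5-fold higher in the set in both libraries (27.3%) and 423 were lower in both (4.57%). The medians over all genes were 0.32 in the library labelled transgenic and 0.31 in the wild-type library on the log2 scale. Higher in both were all 7 fibroblast, all 9 epithelial and all 8 B cell markers with enough UMIs, 8 of 11 dendritic cell markers, 6 of 8 T cell markers and 18 of 20 cell cycle genes, while 12 of 20 monocyte markers, 2 of them rule genes, were lower. The collagen gene Col3a1 was at 477 CPM in the set and 3.23 CPM in cluster 3 in the library labelled transgenic, and at 670 and 2.22 CPM in the wild-type library. The keratin Krt8 was at 1816 and 41.1 CPM, and at 1105 and 34.7 CPM, and the carbonic anhydrase Car1 at 3103 and 103 CPM, and at 3812 and 129 CPM. Col1a2, Serpinh1, Serping1, Bgn, Reg3b, Mmp2 and Col5a1 made up the remaining genes of the 10 higher. Lower in the set were Nos2, Cxcl3, Arg1, Il1a, Slpi, Cxcl2, Inhba, Cxcl1, Il1rn and Saa3, and Cxcl2 was at 351 and 2559 CPM, and at 2187 and 9098 CPM. C1qb, which the rule held low, was at 45.5 and 1004 CPM, and at 95.7 and 533 CPM.

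Once both sides were limited to the rule genes and to at least 1% of UMIs on the 15 monocyte genes, few genes differed in both libraries. The limit chose both sides by the same genes, so part of this likeness is built in. The limit kept 63 and 504 barcodes of the set and 194 and 550 cells of cluster 3. Of 3721 genes 45 were higher in both libraries (1.21%), 35 were lower in both (0.941%) and 14 differed in opposite directions (0.376%). Genes that differed in 1 library alone are not in these counts. In the library labelled transgenic, Retnla had a ratio of 4.73 (4.44 to 5.04), Fn1 1.97, Plac8 0.496 and Chil3 0.172. In the wild-type library the ratios of these genes were 0.739, 0.881, 0.832 and 0.901. The lectin Cd209a was at 195 CPM in the set and 61.6 CPM in cluster 3 in the library labelled transgenic, and at 46.1 and 1.53 CPM in the wild-type library. Ckb (creatine kinase B) was at 235 and 67.5 CPM, and at 81.6 and 35.8 CPM. Limd2, Hmgn1, Map4k1, Lta4h, Plp2, Lipa, Acot7 and Bin1 were the other 8 named, with ratios between 1.51 and 3.13. All 3 B cell markers and both T cell markers with enough UMIs, Cd79a, Cd79b, Ebf1, Cd3d and Cd3g, were higher in the set in both libraries, and their part in these differences was not tested.

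Of 10 proinflammatory genes, 3 were lower in the set than in cluster 3 in both libraries, Il1a, Ptgs2 and Saa3, and 0 were higher. Of 7 genes of arginine and itaconate metabolism 3 were lower and 0 higher, and of 6 CC chemokines 1, Ccl3, was lower and 0 higher. Arg1 was at 6.14 CPM in the set and 94.4 CPM in cluster 3 in the library labelled transgenic, and at 461 and 1210 CPM in the wild-type library. Inhba, Cxcl3, Slpi, Saa3, Ccl3, Il1a, Pf4, Ptgs2 and Id3 followed, with ratios between 0.132 and 0.550. Of 7 CXC chemokines 4 were lower in both, of 18 glycolysis genes 2, Bnip3 and Vegfa, and of 14 MHC class II genes 2, H2-DMb2 and H2-Ob, were higher in both. Nfil3 had ratios of 0.781 and 0.992. Median depth differed between the sides, at 9409 and 5323 UMIs in the library labelled transgenic and 9523.5 and 6072 UMIs in the wild-type library, because the gene limit separates them.

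**Figure D5:**
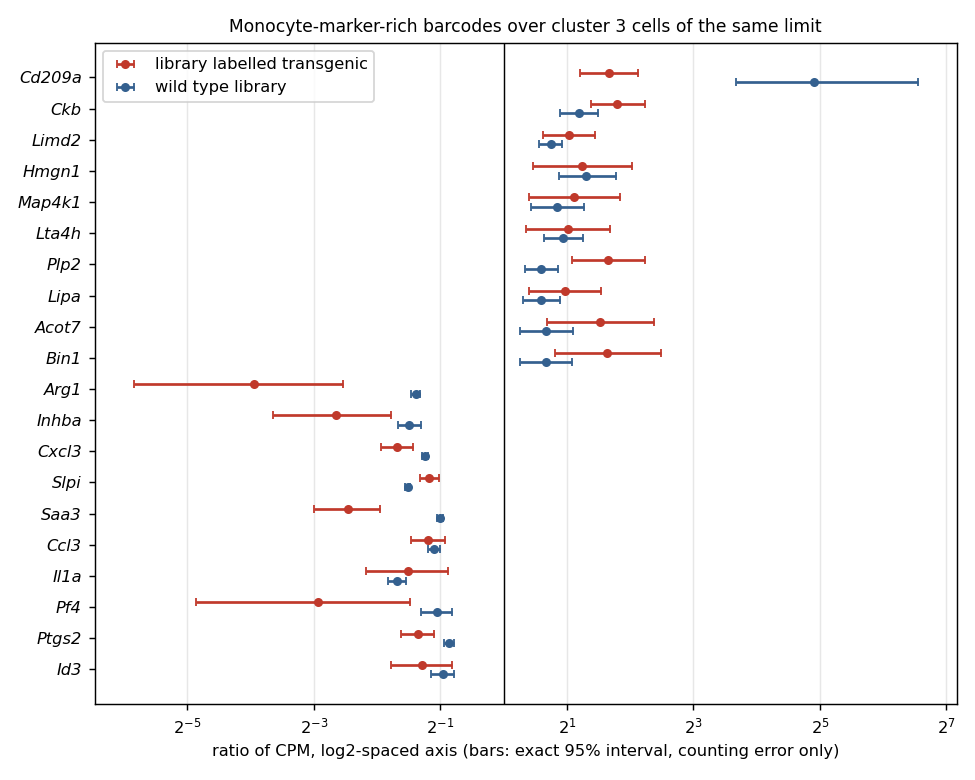
Ratio of monocyte-marker-rich barcodes of the Plac8-led set over cluster 3 cells of the same limit (log2 scale), in the library labelled transgenic and in the wild-type library, for the 10 named genes each way. Cd209a stood at 3.17 and 30.1 as a linear ratio and Arg1 at 0.0651 and 0.381.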

How the data were processed

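The 2 libraries, 1 per genotype, were read from the deposited tables of UMI counts per gene and barcode. The authors' deposited counts are raw whole numbers for 32285 genes; the deposited annotation gives UMI and gene counts, percent of UMIs on mitochondrial and immunoglobulin genes, and cluster numbers for the cells the authors kept, none of which reaches 2200 genes in that annotation. Cell Ranger 5.0.0, Seurat 4.0 and mm10 are named in the submitters' processing notes, and the steps they were used for are not given in the sources used here. The members, the gene lists and the comparisons were chosen with earlier results of these data known, and the 1% limit and the alternatives by sub-cluster were added after seeing the data.

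UMIs were summed per library and set and scaled to 1000000 (CPM). Intervals at 95% were exact Poisson for CPM, Clopper-Pearson for shares of barcodes and conditional binomial for ratios. Calls needed a 1.5-fold ratio and 50 UMIs. Reads of molecules share libraries, so these intervals cover counting error only. Between the libraries, the genes named were the 12 each way with at least 2-fold, 50 UMIs and a UMI in 10% of cells of the higher library. Against cluster 3 they were the 10 each way past 1.5-fold in both libraries. Both rankings used the interval bound nearest to 1. They left out immunoglobulin, T cell receptor, haemoglobin, mitochondrial, ribosomal and predicted genes, the rule genes and the 3 C1q genes. Genes under 0.1 of their CPM in another cell group of the same library were left out too. In the monocyte-marker-rich barcodes the ranking between libraries also left out the 15 monocyte genes. From each list the called genes with the largest folds are named; some results are not reported here. Always given were the rule genes, Nfil3, Il1b, Il10, Retnla, Arg1 and Ccr2. The 41 lists held 550 distinct genes, of which Clec7a and Cxcl11 were not matched. Genes at 0 enter list medians at 3 UMIs.

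Sub-clusters used 2000 variable genes, 20 components, 15 neighbours and Leiden resolution 0.6 (scanpy 1.11.5, leidenalg 0.10.2, Python 3.11.15). No doublet was removed from the main values; leaving out the 8% highest Scrublet scores was an alternative. The scripts were tested on simulated data.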

Additional observations from a re-analysis of the deposited data

Results flagged for a closer look

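Cd177, a surface protein of neutrophils, differed in opposite directions in the 2 kinds of monocyte-gene cells. Its ratio of the library labelled transgenic over the wild-type library was 0.510 (0.298 to 0.821) in the monocyte-marker-rich barcodes, on 18 and 279 UMIs with 61.1% of those of the library labelled transgenic in 5 barcodes, and 1.57 (1.14 to 2.15) in cluster 3 cells of the same limit, on 61 and 126 UMIs. The difference between the 2 kinds of cells was not tested.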

How the results depend on the processing

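No paired analysis was possible because each genotype has 1 library. Of the values given for single genes under the alternatives, 851 stayed within the counting interval of the main value, 299 moved out of it and 4 changed sides: Retnla in the whole set fell to 0.633 without barcodes with other-lineage UMIs, Fn1 in the monocyte-marker-rich barcodes to 0.473 without sub-cluster 12 and to 0.680 in sub-cluster 0 alone, where Cxcl3 was at 3.73. The cause was not tested. Only genes past 1.5-fold in the main values could count as changing sides. Genes nearer to 1 that crossed it are among the other values. In most alternatives values on under 20 UMIs were left out. No ratio could be given where an alternative left 0 UMIs in the wild-type library. The ratio of the set's share, 0.468, was 0.642 among left-out barcodes with 2200 or more genes, 0.945 of the set plus cluster 3, 0.309 with a rule sum of at least 20 and 0.730 with 3000 or more genes. In the whole set, genes higher numbered 677 at 200 UMIs or more, 2713 by the mean of per-cell CPM, 717 with 3000 or more genes per barcode and 785 without other-lineage UMIs when the plasma list was not used. A 2-fold call gave 588 higher and 486 lower, and leaving out all other-lineage UMIs, with 26 and 41 barcodes left, 194 and 382. In the monocyte-marker-rich barcodes, genes higher numbered 1509 at 20 UMIs, 1608 without the 8% of cells richest in each gene, 443 with 3000 or more genes and 553 without other-lineage UMIs, plasma list not used. Genes higher and lower numbered 305 and 501 at 2-fold, and 204 and 459 at 200 UMIs, 447 and 644 in sub-cluster 0 alone, and 74 and 219 without all other-lineage UMIs, with 5 and 29 barcodes left. The number of genes tested changed too. In the whole set it was 11150 in the main values, 7213 at 200 UMIs and 9866 with 3000 or more genes. It was 6638 without other-lineage UMIs, plasma list not used, and 1818 without all of them. In the monocyte-marker-rich barcodes it was 7337 in the main values, 9332 at 20 UMIs and 3382 at 200 UMIs. It was 3537 with 3000 or more genes, 3937 in sub-cluster 0 alone, 4962 without other-lineage UMIs, plasma list not used, and 850 without all of them. Over cluster 3, genes lower in both libraries numbered 1017 with median-of-ratios scaling and 256 by the mean of per-cell CPM, genes higher 277 without other-lineage UMIs, both 1656 and 124 at 2-fold, and 45 and 35 with both sides at the 1% limit. The 63 barcodes of the library labelled transgenic limit depth: a gene with 0 UMIs there allows up to 3.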
